A study of Mus musculus with 10 samples.

Results

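The endogenous opioid system was followed through the 4 genes for its peptide precursors (Penk, Pdyn, Pnoc and Pomc) and the 4 genes for their receptors (Oprm1, Oprd1, Oprk1 and Oprl1) in RNA sequencing libraries of mouse cerebral cortex at postnatal day 8. The members were taken by name, and all 8 were found among the 30935 genes of the count table and passed the filter on low counts. The group was proposed with the genotype difference of these libraries in view, in which Penk is among the genes that passed the test. The genotype differences of the 8 genes are therefore given as a description, with standard errors and without p-values.

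The 10 libraries came from 5 wild-type mice (Rbfox1 +/+, replicates 2, 4, 5, 6 and 7) and 5 mice carrying the HAR.505 deletion on both alleles of the Rbfox1 locus (Rbfox1 ΔHAR.505/ΔHAR.505, replicates 1, 3, 5, 6 and 8), called knockout here. The series design calls the samples of each genotype independent. Human accelerated regions are conserved elements that gathered many changes on the way to humans. The title of the series concerns enhancers of RBFOX1, the gene of a neuronal splicing regulator. The deletion removes a noncoding element, so the counts of a gene do not check the genotype labels. The sources used here give no strain, sex, litter or number of founder lines. The design asks which cortical genes differ when the element is absent, and Rbfox1 itself ranged over 204 to 238 CPM (wild type) and 191 to 247 CPM (knockout), and its log2 fold change was -0.06 (SE 0.063, edgeR adjusted p = 0.879). CPM is the count of a gene relative to the scaled total of its library, in the usual unit.

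Opioid peptides are cut from larger precursors by prohormone convertases inside secretory granules. Penk encodes proenkephalin, the source of the enkephalins, which act mainly on the delta receptor (Oprd1) and the mu receptor (Oprm1). Pdyn encodes prodynorphin, whose dynorphins prefer the kappa receptor (Oprk1), Pnoc encodes the precursor of nociceptin, the ligand of the nociceptin receptor (Oprl1), and Pomc encodes the precursor of beta-endorphin, corticotropin and the melanocortins. All of these receptors couple to inhibitory G proteins, which lower adenylyl cyclase activity, open inwardly rectifying potassium channels and close calcium channels. In the forebrain Penk and Pdyn are best known from the projection neurons of the striatum, Penk in the indirect pathway and Pdyn in the direct pathway, and both are also made by subsets of cortical neurons.

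Library totals ran from 16479594 to 22391943 counts. Defining cortical genes were present: the vesicular glutamate transporter gene Slc17a7 averaged 957 CPM over the 10 libraries, and the cortical factor gene Neurod2 averaged 130 CPM, with 0 of 11 excitatory neuron genes past the edgeR test (5 at an unadjusted p under 0.05). Markers of neighbouring tissue differed between the genotypes. The summed CPM of 21 striatal genes, with no opioid gene among them, ran from 915 to 1103 in wild type and from 780 to 948 in knockout. Most of this sum is Gnal and Adcy5, which averaged 345 and 240 CPM, with log2 fold changes of -0.15 and -0.13. The summed CPM of 14 choroid plexus genes ran from 257 to 324 in wild type but was 238 in knockout replicate 1, 103 in replicate 8 and 22.1 to 27.3 in replicates 3, 5 and 6, and 2 of these genes (Clic6 and Tmem72) fell by edgeR. Over all tested genes 0.194% fell. An unadjusted p under 0.05 was found for 9 of the 14, against 8.71% of all genes. Ttr, the main choroid plexus transcript, had 0 counts in knockout replicate 3, which allows up to 0.165 CPM (3 counts of its total, counting error only). Most of the choroid sum is Ttr, and not every gene of the list followed it: in knockout replicates 3, 5 and 6 Kl stood at 4.14, 6.60 and 4.17 CPM and Sostdc1 at 5.29, 4.04 and 7.35 CPM. Knockout replicates 3, 5 and 6 and wild-type replicate 5, the library with the highest striatal sum, therefore stood apart. Fits without these libraries keep only knockout replicates 1 and 8 beside wild-type replicates 2, 4, 6 and 7. In bulk tissue, fewer cells of a type and less RNA per cell cannot be told apart.

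The receptor for nociceptin and the enkephalin precursor were the most abundant members in wild-type cortex. For comparison between genes, CPM was divided by the exon length of each gene in kilobases (the union of its annotated exons), and these values are levels, not differences. Oprl1 stood at 17.7 ± 0.937 CPM per kilobase (SD, n = 5) and Penk at 15.6 ± 3.64, and their libraries overlapped. Pdyn followed at 7.09 ± 0.486 and Pnoc at 6.23 ± 0.232, with no overlap between neighbours in this order. Oprd1 stood lower, at 2.32 ± 0.284, and Pomc at 1.10 ± 0.248. Oprk1 (0.502 ± 0.131) and Oprm1 (0.402 ± 0.0564) were lowest, and their libraries overlapped. Oprm1 and Oprk1 have long annotated exon sets (8037 and 9151 bases, against 1634 for Penk), so their values per kilobase depend on which exons cortex uses.

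**Figure D1:**
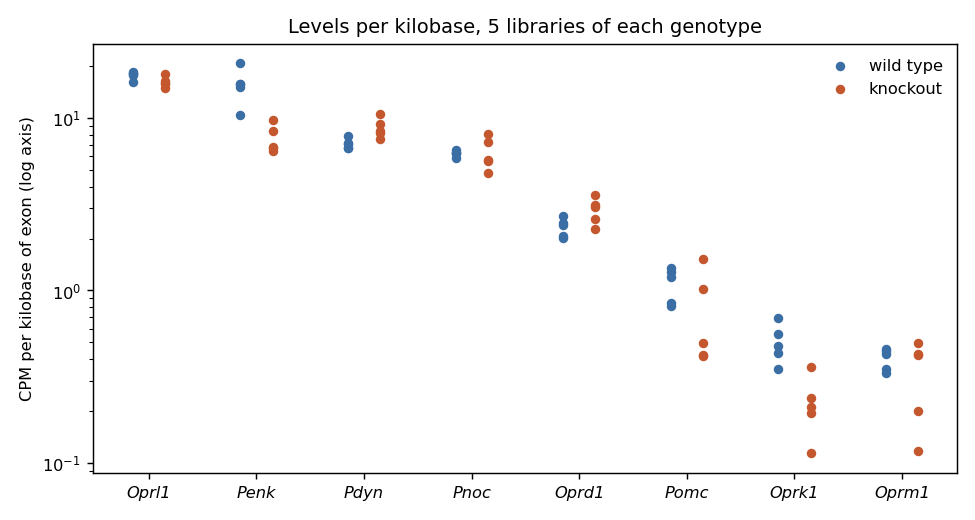
Level of each opioid gene in CPM per kilobase of exon, on a log axis, with 1 point per library and the genes in order of their wild-type mean. Oprl1 and Penk lead in wild type, and Penk stands at 6.40 to 9.77 in knockout, next to Pdyn at 7.58 to 10.5.

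The mix of precursors differed between the genotypes. Penk made up 51.3% ± 5.33 (SD, n = 5) of the summed precursor level per kilobase in wild type and 32.3% ± 3.80 in knockout, and the libraries of the genotypes did not overlap (42.9% to 57.3% against 27.98% to 36.5%). Pdyn made up 23.9% ± 2.29 (21.8% to 27.7%) and 37.8% ± 5.43 (30.3% to 45.0%). The ratio of Penk to Pdyn per kilobase was 1.55 to 2.63 in the wild-type libraries and 0.639 to 1.16 in the knockout libraries. On this scale Penk exceeded Pdyn in every wild-type library and in knockout replicate 6 alone among the knockouts. Where the ratio crosses 1 depends on the exon lengths used (1634 bases for Penk, 2887 for Pdyn). In CPM, Penk lay below Pdyn in wild-type replicate 7 (17.0 against 19.4) and in every knockout library, including replicate 6 (15.97 against 24.4). The ratios of Penk to Pdyn rest on the genotype difference that was known when the genes were chosen and are a description. Among the receptors Oprl1 made up 84.6% ± 1.23 of the summed level per kilobase in wild type and 82.3% ± 2.05 in knockout. The share of Oprd1 was 9.67% to 12.5% in the wild-type libraries and 12.8% to 17.8% in the knockout libraries. These ranges came close, and the CPM of Oprd1 overlapped between the genotypes. Each share depends on the other members of its sum, and no count over all genes was made for such shares.

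Of the 8 genes, 2 passed the edgeR test over all 15488 genes, both lower in knockout (Penk and Oprk1). Over all tested genes 0.381% passed in either direction and 0.194% passed as lower. An unadjusted p under 0.05 was found for 5 of the 8, against 8.71% of all genes, and 1 of the 8 (Penk) had no overlap between the libraries of the genotypes, against 1.82% of all genes. Because the same contrast chose the genes, nothing is read from these counts. The median log2 fold change was -0.24 over the 4 precursors and -0.20 over the 4 receptors, against -0.0021 over all genes tested.

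**Figure D2:**
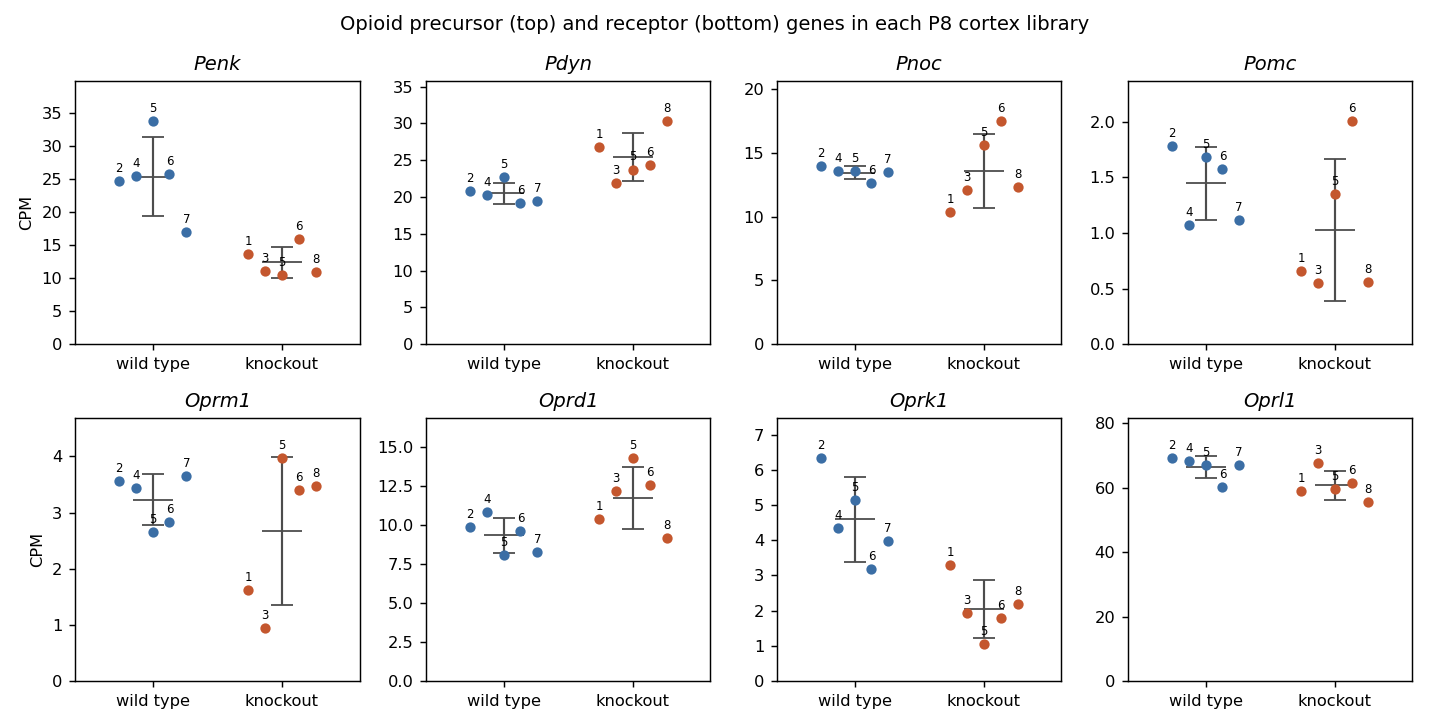
CPM of each opioid gene in every library, with precursors above and receptors below; numbers beside points are replicate numbers, and bars show the mean and SD of 5 libraries. For Penk all knockout points lie below all wild-type points, for Oprk1 knockout replicate 1 lies just above wild-type replicate 6, and the knockout points of Pnoc, Pomc and Oprm1 spread more widely than those of wild type.

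Penk, the enkephalin precursor, stood at 24.8, 25.6, 33.8, 25.8 and 17.0 CPM in wild-type replicates 2, 4, 5, 6 and 7. In knockout replicates 1, 3, 5, 6 and 8 it stood at 13.7, 11.03, 10.5, 15.97 and 10.95 CPM. Every knockout library lay below every wild-type library, a separation that 0.897% of all tested genes showed in this direction, and wild-type replicate 7 came close to knockout replicate 6. The means were 25.4 ± 5.96 and 12.4 ± 2.36 CPM (SD, n = 5 each), and the log2 fold change was -1.03 (SE 0.16), or a fold of 0.490 with a 95% interval of 0.389 to 0.618. Wild-type replicate 5, highest for Penk, was also highest for the striatal genes, and without it the log2 fold change was -0.90. Without that library and knockout replicates 3, 5 and 6 it was -0.92 (SE 0.16), and without knockout replicate 3 alone (-0.99) Penk did not pass the test.

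Pdyn, the dynorphin precursor, went the other way in its mean. Wild-type values were 20.8, 20.3, 22.7, 19.2 and 19.4 CPM and knockout values 26.7, 21.9, 23.7, 24.4 and 30.3 CPM, in replicate order. The genotypes overlapped only through wild-type replicate 5, which lay above knockout replicate 3. The log2 fold change was 0.31 (SE 0.093), a fold of 1.24 with a 95% interval of 1.09 to 1.42, and it did not pass the test over all genes. It ranged from 0.24 without knockout replicate 8, the highest library, to 0.36 without knockout replicate 3, and was 0.52 (SE 0.11) without wild-type replicate 5 and knockout replicates 3, 5 and 6. Both precursors are known from the striatum and from subsets of cortical neurons. Their log2 fold changes had opposite signs here, and no source is read from the signs.

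Pnoc, the nociceptin precursor, averaged 13.4 CPM in wild type against 13.6 CPM in knockout. Its wild-type values were 13.99, 13.6, 13.5, 12.6 and 13.5 CPM, with knockout values of 10.3, 12.1, 15.6, 17.5 and 12.3 CPM. The coefficient of variation was 3.72% in wild type and 21.4% in knockout, whose libraries lay on both sides of the wild-type range, and no test of this spread was made. The log2 fold change was 0.01 (SE 0.12), with a 95% interval of the fold from 0.847 to 1.201, and it was -0.24 (SE 0.15) without wild-type replicate 5 and knockout replicates 3, 5 and 6. Pomc was the scarcest precursor, with 10 to 36 counts per library. Its values were 1.78, 1.07, 1.68, 1.57 and 1.12 CPM (wild type) against 0.658, 0.552, 1.35, 2.00 and 0.559 CPM (knockout). Knockout replicates 1, 3 and 8 lay below every wild-type library and knockout replicate 6 above all of them, and the 95% interval of the log2 fold change of -0.49 (SE 0.38) ran from -1.27 to 0.28. It was -0.89 (SE 0.40) without knockout replicate 6 and -1.18 (SE 0.53) without wild-type replicate 5 and knockout replicates 3, 5 and 6. Markers of hypothalamus and pituitary, the known main sites of Pomc, were scarce, as Pomc was. The 10 genes of that list summed to at most 2.10 CPM in any library, Prl and Cga had 0 counts in all 10 libraries, and the most abundant, Agrp, Gnrh1 and Ghrh, averaged 0.456, 0.257 and 0.175 CPM. The part of such tissue in the Pomc value was not tested.

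Among the receptors, Oprk1, the gene of the kappa receptor, which binds the dynorphins, stood at 6.34, 4.34, 5.15, 3.19 and 3.96 CPM in wild-type replicates 2, 4, 5, 6 and 7. In knockout replicates 1, 3, 5, 6 and 8 it stood at 3.29, 1.93, 1.04, 1.78 and 2.18 CPM, from 17 to 55 counts. The genotypes overlapped in a single pair, since knockout replicate 1 exceeded wild-type replicate 6. The means were 4.60 ± 1.203 and 2.04 ± 0.816 CPM (SD, n = 5 each), and the log2 fold change was -1.16 (SE 0.25), or a fold of 0.447 with a 95% interval of 0.313 to 0.638. At these counts the size was less certain than for Penk. With single libraries left out, Oprk1 passed in 4 of 10 fits and Penk in 9 of 10, and Oprk1 was lost without wild-type replicates 2, 4 or 5 or knockout replicates 3, 5 or 6, at log2 fold changes of -0.998 to -1.18. Without wild-type replicate 5 and knockout replicates 3, 5 and 6 together the log2 fold change was -0.70 (SE 0.30), which did not pass.

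Oprd1, the delta receptor gene, had a positive log2 fold change of 0.33 (SE 0.13) that did not pass the test. Wild type gave 9.85, 10.8, 8.10, 9.61 and 8.28 CPM and knockout 10.4, 12.2, 14.3, 12.6 and 9.17 CPM, so the genotypes overlapped. The highest values were those of knockout replicates 3, 5 and 6, the libraries with the lowest Ttr (0, 0.489 and 5.06 CPM), and without these and wild-type replicate 5 the log2 fold change was 0.02 (SE 0.17). The part of other tissue in the Oprd1 value was not tested.

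Oprm1, the mu receptor gene, was low and uneven in knockout. Wild-type values were 3.56, 3.43, 2.66, 2.83 and 3.66 CPM, against 1.61, 0.938, 3.97, 3.39 and 3.46 CPM in knockout. Knockout replicates 1 and 3 lay below all wild-type libraries, while the other 3 lay within or above their range. The log2 fold change was -0.27 (SE 0.28, 95% interval -0.85 to 0.31) and -0.05 without knockout replicate 3. Oprl1, the nociceptin receptor gene, stood at 60.3 to 69.3 CPM in wild type and 55.7 to 67.8 CPM in knockout. Its log2 fold change was -0.13 (SE 0.061), with a 95% interval of the fold from 0.839 to 0.998, and it did not pass over all genes.

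**Figure D3:**
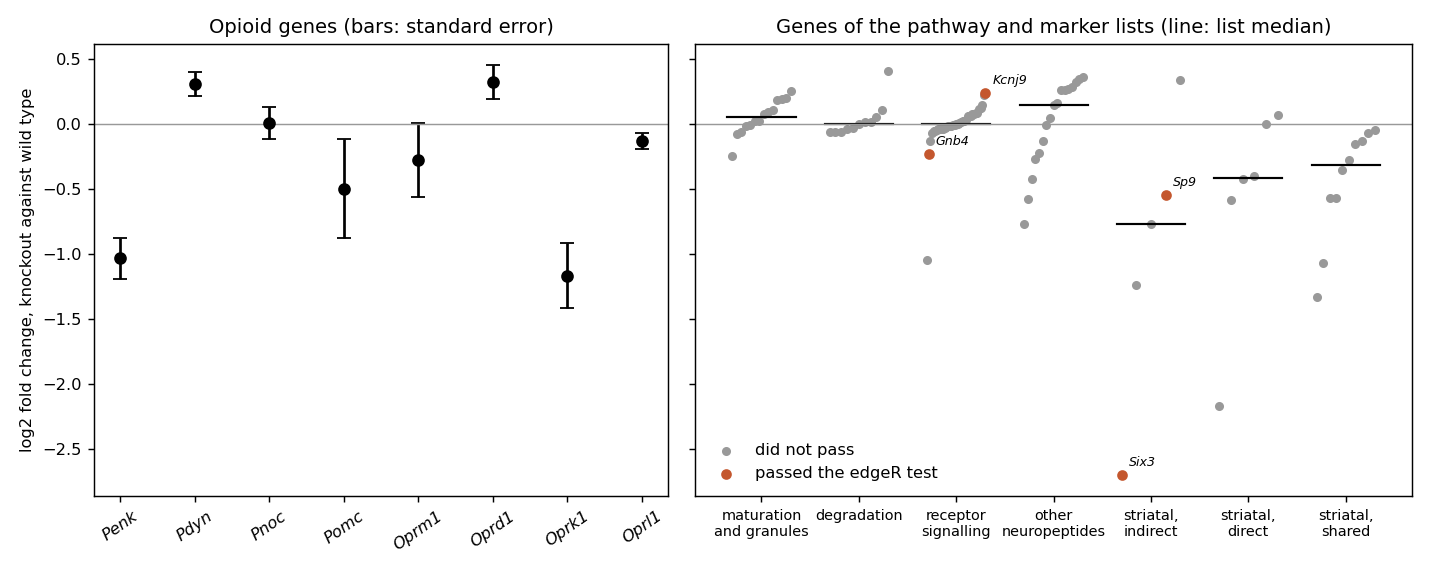
Log2 fold change of knockout against wild type for the 8 opioid genes (left, bars are standard errors) and for each tested gene of 7 other lists (right, lines are list medians, coloured points passed the edgeR test over all genes). Penk and Oprk1 lie near -1, Pdyn and Oprd1 near 0.3, and the medians of peptide maturation, degradation and receptor signalling are 0.056, 0.00098 and 0.0024.

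Whether a precursor and its receptor moved together from animal to animal was examined after removing each genotype's mean, so that the genotype difference played no part. Log2 CPM values were correlated over the 10 libraries for 5 pairs, with an exact two-sided permutation test within genotypes and Benjamini-Hochberg adjustment over the 5 pairs. Of the 5 pairs, Pdyn and Oprk1, dynorphin precursor and kappa receptor, had the highest values, with Pearson r = 0.51 (exact permutation p = 0.206, adjusted p = 0.898) and Spearman rho = 0.71 (exact permutation p = 0.0368, adjusted p = 0.184). Without the 2 libraries farthest from the Pdyn median (knockout replicate 8 and wild-type replicate 5) r was 0.63. The pair did not pass after adjustment. Some precursors and receptors outside the 5 pairs had values as large, given without a test. Their r was 0.64 for Pnoc and Oprm1, 0.53 for Pnoc and Oprd1 and -0.69 for Pdyn and Oprd1. Others were small, such as Pomc and Oprl1 (-0.05). The value of Pdyn and Oprk1 is therefore not shown to be particular to a ligand and its receptor.

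For Pomc and Oprm1 r was 0.50 (exact permutation p = 0.359, adjusted p = 0.898) and rho 0.49 (exact permutation p = 0.287, adjusted p = 0.478). This value rested on knockout replicates 5 and 6, without which r was -0.16. Penk was not seen to follow either of its receptors. With Oprd1 r was 0.01 (exact permutation p = 0.967, adjusted p = 0.967) and rho -0.05 (exact permutation p = 0.897, adjusted p = 0.897), and r was -0.02 without wild-type replicates 5 and 7. With Oprm1 r was -0.12 (exact permutation p = 0.729, adjusted p = 0.967) and rho -0.47 (exact permutation p = 0.194, adjusted p = 0.478), and r was 0.04 without the same libraries. Pnoc and Oprl1 had r = 0.15 (exact permutation p = 0.793, adjusted p = 0.967) and rho = 0.31 (exact permutation p = 0.438, adjusted p = 0.547), and r was 0.03 without knockout replicates 1 and 6. With 10 libraries the pairs that did not pass are not shown to be unrelated, and with 5 libraries a genotype is too small for a correlation of its own.

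**Figure D4:**
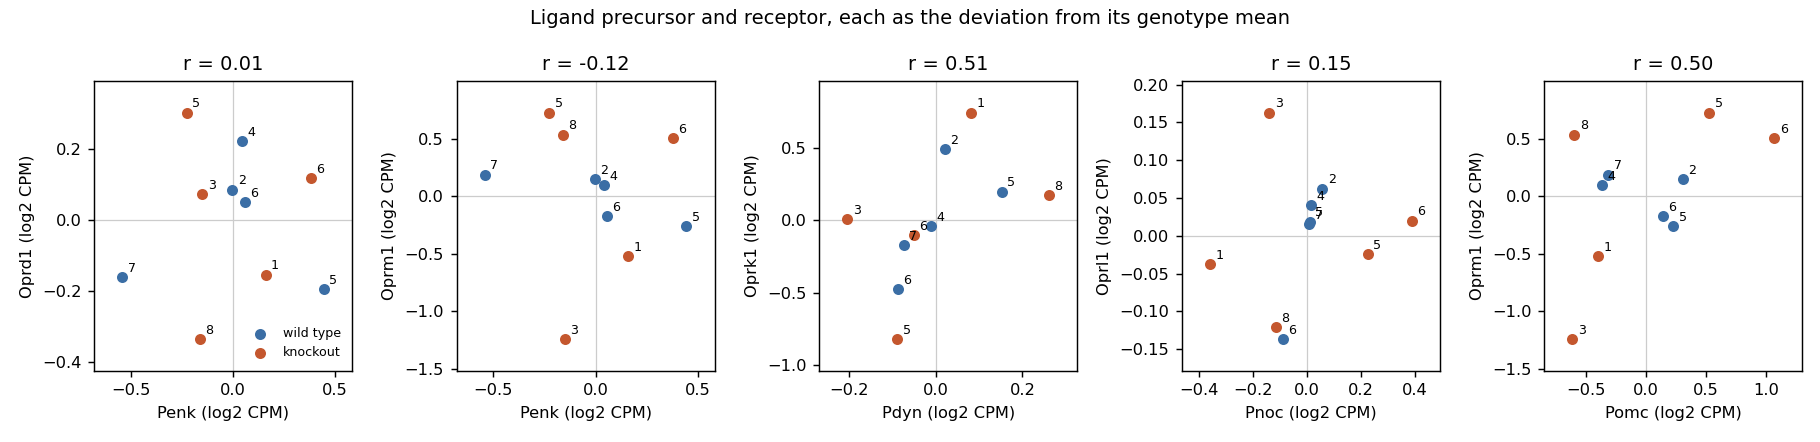
Log2 CPM of precursor (x axis) and receptor (y axis) as deviations from the genotype mean, 1 point per library with its replicate number. Pdyn and Oprk1 lean upward (r = 0.51), while Penk and Oprd1 show no slope (r = 0.01).

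The genes whose deviations from the genotype mean were most like those of a member were picked from 14289 tested genes by Pearson r over the 10 libraries, as a description without p-values. For Penk they were Sh2d5 (r = 0.95), Gsta4 (0.95), S100a16 (0.94), Il18 (0.93) and Asb6 (0.92). For Oprk1 they were Ttc4 (0.98), Slain1os (0.95) and Polr3f (0.95), and for Pdyn Hs3st2 (0.95), Crabp1 (0.93) and Dnah14 (0.93). Pnoc was most like Lsr (0.96), Zfp92 (0.95) and Gdf10 (0.95), and Pomc most like Poc1b (0.94), Noc2l (0.91) and Ankrd39 (0.91). The nearest genes of Oprm1 were Pbk (0.96), Xrn2 (0.94) and Sowahb (0.93), those of Oprd1 Calcrl (0.94), Ccdc93 (0.92) and Bbx (0.92), and those of Oprl1 Uqcrfs1 (0.96), Endog (0.96) and Gpr25 (0.95). None of these 26 genes passed the edgeR test between genotypes. Crabp1 came nearest (log2 fold change -1.47, SE 0.35, edgeR adjusted p = 0.0993). Such values of r, the highest of many genes over few libraries, were found for all 8 members, and the genes share library and depth.

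Genes for the making of opioid peptides came next. Of 14 genes of peptide maturation and secretory granules, 0 passed the edgeR test over all genes, with 5 at an unadjusted p under 0.05 (against 8.71% of all genes), and DESeq2 called 1 and limma-voom 0. The median log2 fold change was 0.056. Pcsk2, the prohormone convertase that completes the cutting of proenkephalin and prodynorphin, averaged 196 ± 7.96 (wild type) and 225 ± 12.6 CPM (knockout; SD, n = 5 each), and its log2 fold change was 0.20 (SE 0.048, edgeR adjusted p = 0.0615), and it was the gene DESeq2 called. Scg2, a granule protein gene, stood at 125 and 106 CPM (-0.25, SE 0.072, edgeR adjusted p = 0.203). Of 11 peptide-degrading enzyme genes, 0 passed by edgeR, DESeq2 or limma-voom and 0 had an unadjusted edgeR p under 0.05, with a median of 0.00098. The smallest p-values were those of Ece2, an endothelin-converting enzyme gene (0.41, SE 0.30, adjusted p = 0.785), and Npepps, an aminopeptidase gene (-0.06, SE 0.047, adjusted p = 0.810).

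Of 37 genes for partners of the receptors (G proteins, receptor kinases, arrestins, RGS proteins, adenylyl cyclases and channels), 1 rose and 1 fell by edgeR, and the median was 0.0024. Over all tested genes 0.187% rose and 0.194% fell. An unadjusted p under 0.05 was found for 6 of the 37, against 8.71% of all genes. Kcnj9, a subunit of the G protein-gated potassium channel, rose from 85.2 ± 4.30 to 100.9 ± 4.71 CPM (SD, n = 5 each), by 0.24 on the log2 scale (SE 0.053, edgeR adjusted p = 0.0346), and all knockout libraries lay above all wild-type libraries. That separation was shown by 0.923% of all tested genes. Gnb4, a G protein beta subunit gene, fell from 159 ± 6.48 to 136 ± 10.9 CPM (log2 fold change -0.23, SE 0.053, edgeR adjusted p = 0.0410), with no overlap of libraries (0.897% of all genes in this direction). With single libraries left out, Kcnj9 passed in 4 and Gnb4 in 1 of 10 fits, the first lost without wild-type replicates 2, 4, 5 or 7 or knockout replicates 3 or 6, the second kept without knockout replicate 8 alone. Together the 3 pathway lists had 62 genes, of which 2 passed, against 0.381% of all genes. These lists were drawn up with earlier results of the same libraries known, so nothing is read from these counts.

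The other channel subunits are given because Kcnj9 passed, chosen after their values were seen. Kcnj3 averaged 89.5 ± 5.15 (wild type) and 105 ± 3.56 CPM (knockout, log2 fold change 0.22, SE 0.053, edgeR adjusted p = 0.0505), with no overlap of libraries (0.923% of all genes in this direction). Kcnj5 was scarce, at 3.10 and 1.504 CPM (-1.04, SE 0.29, adjusted p = 0.153), and Kcnj6 stood at 19.5 and 19.1 CPM (-0.04, SE 0.12, adjusted p = 0.974). The subunits therefore had log2 fold changes of both signs. Gnao1, the gene of the abundant brain G protein alpha subunit Go, stood at 1158 and 1156 CPM (log2 fold change -0.0028, SE 0.044).

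Genes of the striatum, where Penk and Pdyn are best known, mostly had negative log2 fold changes, as Penk and Oprk1 did. Of 21 tested striatal genes 2 fell by edgeR (0.194% of all genes did) and 16 had an unadjusted p under 0.05 (8.71% of all genes). Of these 21, 3 had a positive log2 fold change and the median was -0.42. Without wild-type replicate 5 and knockout replicates 3, 5 and 6, 0 passed by edgeR (7 at an unadjusted p under 0.05) and the median was -0.24. Six3, an indirect pathway transcription factor gene, fell by 2.70 on the log2 scale (SE 0.36, edgeR adjusted p = 0.000625) and Sp9 by 0.54 (SE 0.12, edgeR adjusted p = 0.0386). Sp9 is also made by cortical interneurons. The other indirect pathway genes had log2 fold changes of -1.24 (Adora2a), -0.77 (Drd2) and 0.34 (Gpr6). The direct pathway genes, among which Pdyn is counted in the striatum, had -2.17 (Isl1), -0.58 (Ebf1), -0.42 (Tac1), -0.40 (Drd1), 0.01 (Eya1) and 0.08 (Slc35d3). Genes shared by both pathways had -1.33 (Ppp1r1b), -1.06 (Scn4b), -0.57 (Rarb), -0.56 (Rgs9), -0.35 (Pde10a), -0.27 (Actn2), -0.15 (Gnal), -0.13 (Adcy5) and -0.04 (Syndig1l).

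Penk and the striatal genes were also set side by side in each library. The mean log2 CPM of the 21 genes was 3.84, 3.77, 4.25, 3.85 and 3.57 in wild-type replicates 2, 4, 5, 6 and 7, and 3.39, 3.14, 3.10, 3.07 and 3.64 in knockout replicates 1, 3, 5, 6 and 8. Wild-type replicate 5 was highest and replicate 7 lowest of its genotype for both this mean and Penk. In knockout, replicate 8 had the highest striatal mean but a low Penk value (10.95 CPM), and replicate 6 had the lowest striatal mean and the highest Penk value (15.97 CPM). With the striatal mean as a covariate the log2 fold change was -0.66 (SE 0.24) for Penk and -0.68 (SE 0.40) for Oprk1, neither past the test, and 0.60 (SE 0.14) for Pdyn, also not past it. In that fit 0 of 15488 genes passed by edgeR (662 at an unadjusted p under 0.05), and the striatal mean was itself lower in 4 of the 5 knockout libraries than in any wild-type library, so the part of striatal tissue in the Penk and Oprk1 values cannot be told apart from the genotype.

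**Figure D5:**
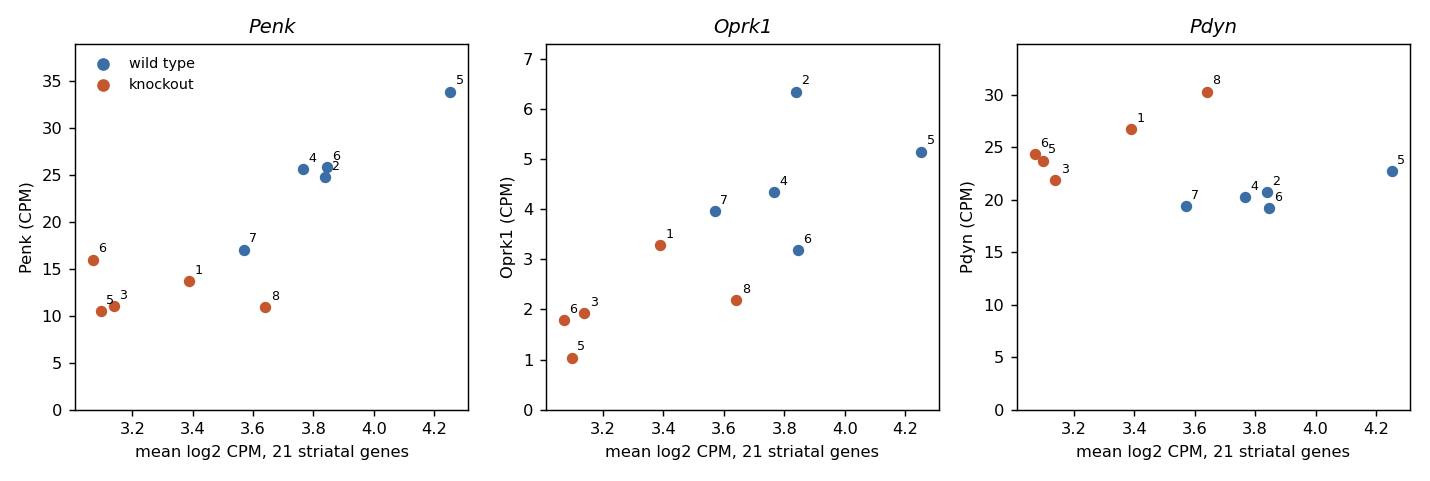
CPM of Penk, Oprk1 and Pdyn (y axes) against the mean log2 CPM of 21 striatal genes (x axis), 1 point per library with its replicate number. Knockout replicate 8 overlaps wild-type replicate 7 in the striatal mean (3.64 and 3.57) but has less Penk (10.95 against 17.0 CPM), and Pdyn in knockout lies mostly above wild type at lower striatal means.

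Other sources of opioid gene expression gave the following values beside these results. Claustrum and endopiriform genes, neighbours of the cortex in which Oprk1 is known to be expressed, summed to 478 to 520 CPM in wild type and 441 to 465 CPM in knockout over 6 genes, of which 1 fell (Gnb4, also counted among the receptor partners). Over all tested genes 0.194% fell. An unadjusted p under 0.05 was found for 3 of the 6, against 8.71% of all genes, and 2 of the 6 had a positive log2 fold change. The 3 most abundant genes of the list were Gnb4, Synpr (110 and 92.3 CPM, log2 fold change -0.25, edgeR adjusted p = 0.261) and Nr4a2 (92.3 and 90.7 CPM, -0.03, edgeR adjusted p = 0.967). The scarce Gm45623 had the largest change of the list (3.59 and 1.46 CPM, -1.29, SE 0.34, edgeR adjusted p = 0.126). Cortical interneuron genes, which include the cells that express Penk, Pdyn and Pnoc in cortex, summed to 1008 to 1098 CPM in wild type and 870 to 1089 CPM in knockout. Of 19 tested, 1 fell (0.194% of all genes did), the vesicular GABA transporter gene Slc32a1 (log2 fold change -0.33, SE 0.061, edgeR adjusted p = 0.00989). An unadjusted p under 0.05 was found for 6 of the 19, against 8.71% of all genes. Reln, Sst and Gad1, the most abundant, averaged 224, 149 and 145 CPM. Meningeal fibroblasts can also express Penk, and their 9 genes summed to 299 to 338 CPM in wild type and 245 to 399 CPM in knockout, with the highest sums in knockout replicates 3, 5 and 6. The part of these cells in the Penk and Oprk1 values was not tested.

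Other neuropeptide genes served as a comparison for the precursors. Of 17 tested, 0 passed by edgeR, with 8 at an unadjusted p under 0.05 (against 8.71% of all genes), while DESeq2 called 2 and limma-voom 0, and the median was 0.15. Grp, the gastrin-releasing peptide gene, averaged 19.4 ± 0.799 (wild type) and 25.1 ± 2.35 CPM (knockout, log2 fold change 0.37, SE 0.088, edgeR adjusted p = 0.0562), with no overlap of libraries (0.923% of all genes in this direction). Cartpt, the precursor gene of the peptide CART, stood at 9.61 ± 1.69 and 5.65 ± 1.93 CPM (-0.77, SE 0.19, edgeR adjusted p = 0.0840). Grp and Cartpt were the genes DESeq2 called.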

How the data were processed

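The authors deposited a table of raw counts per gene for the 10 libraries, with Entrez identifiers. The submitters' processing notes name HISAT2, featureCounts and the build mm39. The sources used here give no versions, annotation, strand setting or handling of multiply aligned reads, so overlapping or antisense transcripts cannot be separated. Symbols came from a RefSeq table of GRCm38.p6 (30648 identifiers matched), and exon lengths from GENCODE M21, both of another build than the counts, so no coordinates are given. 217 of 218 list entries matched a gene.

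The test was that of edgeR 4.0.16 in R 4.3.3 (filterByExpr, 15488 genes tested, TMM scaling, robust quasi-likelihood F test, genotype as the sole term, Benjamini-Hochberg adjustment, threshold 0.05). CPM and log2 CPM (prior count 2) used the same scaling. Standard errors came from the F statistic. Correlations used scipy 1.17.1. DESeq2 1.42.0 and limma-voom (limma 3.58.1) were alternatives, as were other scalings and filters, single libraries left out, a replicate block and a striatal covariate. Members and lists were chosen with earlier results of these data known.

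The text names all 8 members, list genes past the threshold, the 2 smallest p-values of each pathway and neuropeptide list, the 3 most abundant genes of each marker list, the striatal genes, and the genes most like each member; 3 marker genes that this rule covers are not reported here. Kcnj3, Kcnj5, Kcnj6, Gnao1 and Gm45623 were named after their values were seen. Libraries of a genotype differed by more than sampling noise (chi-square per degree of freedom 4.10 to 13.9), so each was 1 replicate. The labels do not say that the mice came from separate litters. The analysis was tested on simulated counts, with 100 genes changed 1.5-fold and 100 changed 2-fold. It recovered 77 and 89 of them, and 15 of its 181 calls fell on unchanged genes.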

Additional observations from a re-analysis of the deposited data

Results flagged for a closer look

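In 1 of 16 groups of 5 libraries (8 genes in each genotype), 1 library lay far from the other 4, and chance gives about 1 in 20 such groups. Oprl1, the nociceptin receptor gene, stood at 60.3 CPM in wild-type replicate 6, against 67.0 to 69.3 CPM in the other wild-type libraries. Without that library its log2 fold change was -0.16 (SE 0.063) in place of -0.13.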

How the results depend on the processing

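The log2 fold changes of Penk, Oprk1, Pdyn and Oprl1 kept their sign in all 20 alternatives, Oprd1 and Oprm1 in 19, Pomc in 18 of 19 and Pnoc in 14 of 20. The count of opioid genes past the test (2) was 1 with limma-voom, 1 with the replicate block, 1 without wild-type replicate 5 and knockout replicates 3, 5 and 6 together, 0 with the striatal covariate (3 at an unadjusted edgeR p under 0.05), and 0 to 2 with single libraries left out. The count of pathway genes (2 of 62) was 7 with no filter, 4 with DESeq2, 1 with limma-voom and 1 with non-robust dispersions. It was 0 with the replicate block, 0 with the striatal covariate and 0 without those 4 libraries together (4, 4 and 9 at an unadjusted edgeR p under 0.05), and 0 to 7 with single libraries left out. Over all genes the count (59) was 171 with no filter, 124 with DESeq2, 27 with the block, 11 without the 4 libraries and 15 to 182 with single libraries left out. Of 21 striatal genes 2 fell, 5 with no filter, 5 with DESeq2, 4 with non-robust dispersions, 3 with limma-voom, 5 with the replicate block, 1 with the filter of 50 counts, 0 with the striatal covariate and 0 without the 4 libraries together (5 and 7 at an unadjusted edgeR p under 0.05), and 1 to 6 with single libraries left out. The covariate is the mean of these same 21 genes. That fit takes out their shared difference, so nothing is read from its 0. Leaving out the 4 libraries narrows the same difference, and nothing is read from that 0 either. Numbers 5 and 6 alone occur in both genotypes, and same-numbered libraries did not deviate together (r = -0.030 and -0.057), so the block reflects a shared number alone. With the block, every other library had a term of its own. Its genotype values and calls therefore rest on wild-type and knockout replicates 5 and 6, with little left to gauge the spread. With single libraries left out, r ran from -0.28 to 0.28 for Penk and Oprd1, -0.45 to 0.022 for Penk and Oprm1, 0.47 to 0.62 for Pdyn and Oprk1, 0.05 to 0.47 for Pnoc and Oprl1, and 0.31 to 0.74 for Pomc and Oprm1. No pair passed in any of these fits or under another scaling or prior count. Pomc could not be fitted under the filter of 50 counts in 5 libraries. Depth limits Pomc, Oprm1 and Oprk1, whose libraries held as few as 10, 17 and 17 counts. The cause of these changes was not tested.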

Other observations

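The remaining marker lists gave values with no gene past the edgeR test. Over 8 astrocyte genes (3 at an unadjusted edgeR p under 0.05; Slc1a2, Slc1a3 and Aldoc most abundant at 1878, 634 and 289 CPM), the summed level was 3321 to 3805 CPM in wild type and 3512 to 4103 CPM in knockout. Over 9 oligodendrocyte lineage genes (0 at an unadjusted p under 0.05; Olig1, Pdgfra and Mbp at 187, 171 and 132 CPM) it was 628 to 767 and 634 to 722 CPM. The 8 microglia genes (0 at an unadjusted p under 0.05; Csf1r and Cx3cr1 at 71.5 and 57.8 CPM) summed to 246 to 269 and 243 to 316 CPM, and the 4 endothelial genes (0 at an unadjusted p under 0.05; Cldn5, Kdr and Flt1 at 68.2, 47.1 and 38.2 CPM) to 161 to 188 and 162 to 183 CPM. The 5 red cell genes (2 at an unadjusted p under 0.05; Hba-a1, Hbb-bs and Hba-a2 at 219, 136 and 104 CPM) summed to 482 to 682 and 386 to 692 CPM. Hba-a1 and Hba-a2 are near-identical copies with uncertain read assignment. Of 5 thalamic genes 4 were tested (1 at an unadjusted p under 0.05; Slc17a6, Prkcd and Tcf7l2 at 89.7, 19.1 and 5.93 CPM), and their sum was 112 to 136 and 108 to 128 CPM.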
